A study of Mus musculus with 6 samples.

Results

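The lysosome breaks down proteins, glycans, glycolipids and other lipids with acid hydrolases, and a set of 38 genes that encode such enzymes, their helpers, lysosomal membrane proteins and the transcription factors TFEB, TFE3 and MITF was compared between wild type (WT) mouse embryonic stem cells (mESCs) and mESCs without the deacetylase SIRT1. The genes were listed by name for their known function, with no threshold on a measured value, but with earlier results of these data known. All 38 were among the 54352 genes of the expression table. By role they were 9 cathepsins and other proteases, 11 glycosidases and sulfatases, 7 lipid enzymes, thioesterases and activators, 6 membrane proteins, 2 factors of the endoplasmic reticulum and 3 transcription factors.

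RNA of 6 libraries was sequenced, 3 of WT and 3 of SIRT1 KO mESCs, both grown without treatment in ESGRO, a serum-free medium for mESCs. The labels give the cells as male and of the strain 129Sv/J, and the study's methods describe the knockout as a gene-targeted derivative of the R1 line. Each genotype was therefore 1 line, and the p-values below measure the spread between 3 libraries of a line, not between independently derived lines. The values are log2 normalized expression, and differences are given as log2 fold changes, SIRT1 KO minus WT.

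Lysosomal hydrolases are made in the endoplasmic reticulum, tagged with mannose 6-phosphate in the Golgi and carried to the lysosome by receptors, where many are cut into their active form. TFEB, TFE3 and MITF are related basic helix-loop-helix factors, the MiT/TFE family. The kinase complex mTORC1 holds them in the cytoplasm while nutrients are plentiful, and when it is inactive they enter the nucleus and bind E-box motifs around the sequence CACGTG in the promoters of lysosomal and autophagy genes. Loss of single genes of the set causes lysosomal storage diseases in humans. Among them are Tay-Sachs disease (HEXA), Sanfilippo syndrome (SGSH, NAGLU), Pompe disease (GAA) and several forms of Batten disease (CLN3, PPT1, TPP1, CTSD).

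The promoters of several of these genes hold the E-box, and the stretches that carry it are shown for genes that rose, did not change by the test or fell in SIRT1 KO mESCs. RefSeq promoters on GRCm38.p6, which run from 250 bases before to 50 after the start site, matched 35 of the 38 genes. Letters in capitals are the E-box CACGTG with the T before it or the A after it where these are present (TCACGTGA is the full form), and each sequence runs 5′ to 3′ on the strand of its gene. Lamp1 (chr8:13159083-13159168, plus strand) held 4 E-boxes between -61 and -15 from the start site, each with a T or an A beside it. Ctsa (chr2:164833744-164833800, plus strand) held 2 full forms at -12 and 6, and Cln3 (chr7:126583335-126583402, minus strand) held 2 matches at -149 and -121. Ctsd (chr7:142387903-142387942, minus strand) held a full form at -98. A further E-box of Ctsd, with an A after it, lay at -245, outside the stretch shown. Sgsh (chr11:119355517-119355556, minus strand) held an E-box with an A after it at -29. Mcoln1 (chr8:3500431-3500496, plus strand), whose expression did not pass the test, held 2 matches at -71 and -45, and Ctsf (chr19:4855069-4855108, plus strand), which fell, held an E-box with neither flanking base at -79.
Lamp1: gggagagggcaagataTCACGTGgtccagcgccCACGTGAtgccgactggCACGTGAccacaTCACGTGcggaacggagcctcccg
Ctsa: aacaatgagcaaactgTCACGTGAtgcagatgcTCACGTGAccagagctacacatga
Cln3: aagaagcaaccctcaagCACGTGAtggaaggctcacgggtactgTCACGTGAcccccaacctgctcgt
Ctsd: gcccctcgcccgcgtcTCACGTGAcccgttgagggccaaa
Sgsh: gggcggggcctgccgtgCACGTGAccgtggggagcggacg
Mcoln1: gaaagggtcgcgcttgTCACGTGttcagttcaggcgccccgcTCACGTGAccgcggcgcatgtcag
Ctsf: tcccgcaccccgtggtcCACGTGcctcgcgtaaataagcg

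CACGTG, which reads the same on both strands, was found in a promoter of 11 of the 35 matched genes, or 31.4%. The share was 8.09% over all genes with a promoter entry and 10.9% over the tested protein-coding genes. CACGTGA on either strand, which contains CACGTG, was found for 9 of the 35 genes (25.7%), against 4.29% of all genes and 6.28% of tested protein-coding genes. The 11 genes were Cln3, Ctsa, Ctsd, Ctsf, Ctsl, Gaa, Lamp1, Mcoln1, Naglu, Sgsh and Sumf1. Targets of TFEB have been defined partly by such motifs, so a high share in a set that includes them is a description of the set. A match is likewise no evidence of binding in these cells. It also does not name the factor, as the study describes an E-box in the Smpdl3b promoter as a binding site of c-Myc.

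The labels were checked on the targeted gene. Sirt1 read 15.52, 15.54 and 15.49 in the WT libraries and 13.71, 13.72 and 13.79 in the SIRT1 KO libraries, a log2 fold change of -1.78 (SE 0.049, limma adjusted p = 1.16e-07). Sirt1 RNA was thus lower in all 3 SIRT1 KO libraries but still present. Pou5f1, the pluripotency factor OCT4, lay near 18.4 in all 6 libraries. Of 11 pluripotency markers Klf4 and Dppa3 fell and none rose by the test, with 1 higher and 4 lower at an unadjusted p under 0.05. Over all 26571 tested genes 5148 were higher and 5306 lower at an unadjusted p under 0.05. Klf4 lost its call with median centring and without WT replicate 3 or SIRT1 KO replicate 2 or 3. Libraries of a genotype correlated at 0.998 or more over the tested genes, and WT replicate 2 lay farthest from the mean of its genotype.

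**Figure D1:**
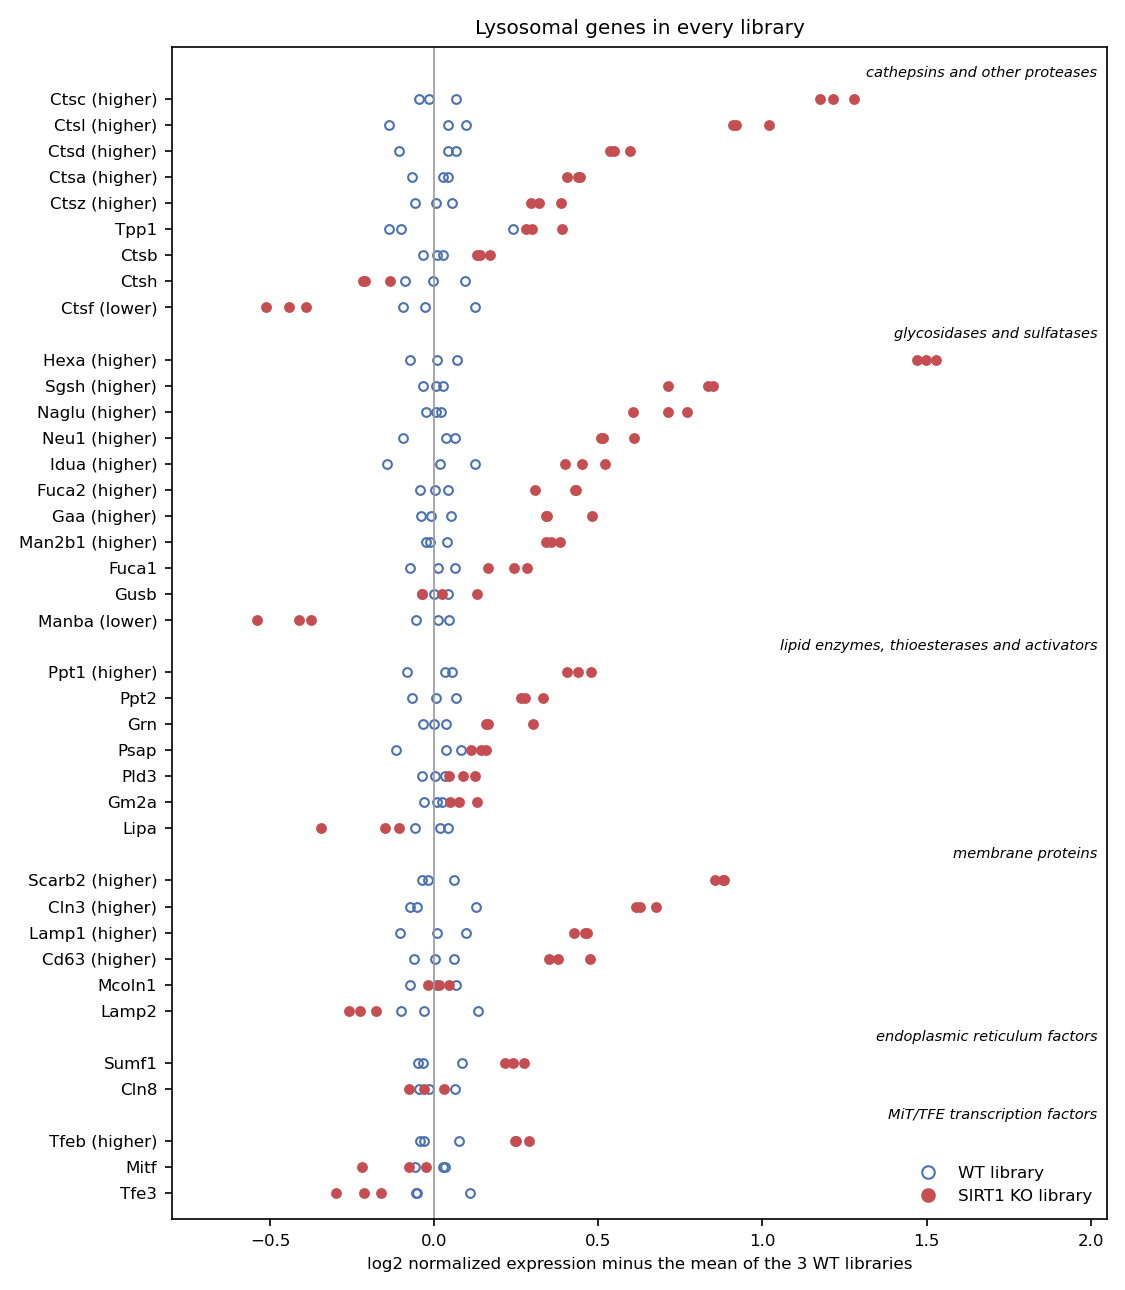
Each row is a gene, and each point is a library, placed by its log2 normalized expression minus the mean of the 3 WT libraries (open circles WT, filled circles SIRT1 KO), with genes ordered by log2 fold change within their role. The SIRT1 KO points of Hexa, Ctsc, Ctsl and Scarb2 lie farthest to the right, those of Manba and Ctsf lie to the left, and those of Gusb, Mcoln1, Cln8 and Mitf overlap with the WT points.

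The set held more rises than falls in SIRT1 KO mESCs. It was chosen with earlier results of these data known, and the bearing of that choice on the counts was not tested. By limma with an adjusted p under 0.01 over all 26571 tested genes, 19 of the 38 rose and 2 fell, while 17 did not pass the test. Over all tested genes 8.47% rose and 8.12% fell, and over the tested protein-coding genes 12.4% rose and 11.3% fell. Among protein-coding genes with a mean linear value of at least 1000, closer to the levels of most of the set, 16.4% rose and 12.0% fell. The median log2 fold change was 0.31 over the 38 genes and -0.01 over all tested genes. In 28 of the 38 genes every SIRT1 KO library lay above every WT library, in 6 below, and in 4 the genotypes overlapped, where 21.8% of all tested genes lay above and 22.9% below, 44.7% together, without overlap. With every library centred on its median, which moved fold changes up by 0.06, 64.3% of the calls over all genes were rises in place of 51.1%. In bulk RNA, fewer cells that express a gene and less of its RNA per cell cannot be told apart.

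**Figure D2:**
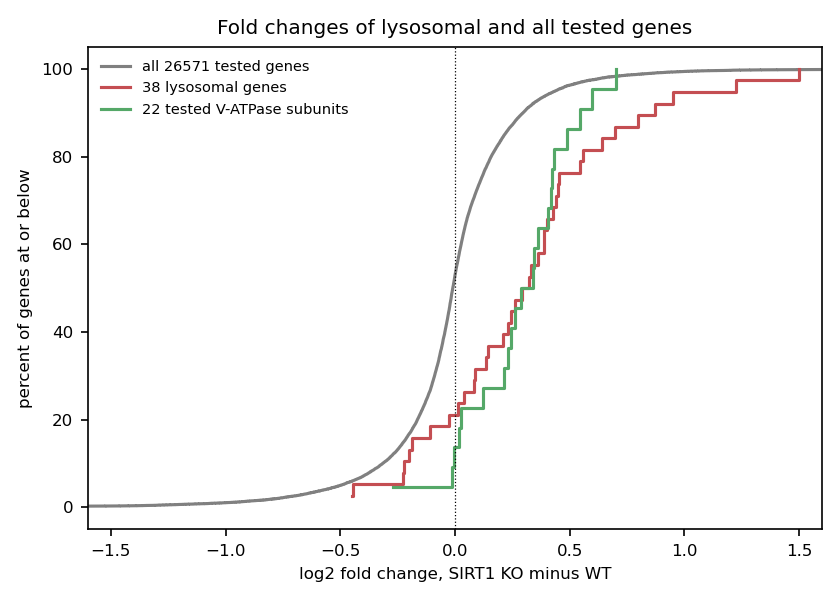
The curves give the percent of genes (y axis) with a log2 fold change, SIRT1 KO minus WT, at or below the value on the x axis for the 38 lysosomal genes, the 22 tested V-ATPase subunits and all 26571 tested genes. The curve of the 38 genes lies to the right of that of all genes, with medians of 0.31 and -0.01.

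Of the 9 proteases, 5 rose, 1 fell and 3 did not pass the test, with a median log2 fold change of 0.33. Ctsc encodes cathepsin C, a dipeptidyl peptidase that activates other proteases. It read 12.82, 12.79 and 12.91 in the WT libraries and 14.06, 14.02 and 14.12 in the SIRT1 KO libraries. The groups lay far apart, with a log2 fold change of 1.22 (SE 0.056, limma adjusted p = 2.2e-06), which is 2.33-fold. Ctsl, which encodes the cysteine endopeptidase cathepsin L, read 15.34, 15.16 and 15.39 in WT and 16.22, 16.21 and 16.32 in SIRT1 KO mESCs. All 3 SIRT1 KO libraries were higher, by a log2 fold change of 0.95 (SE 0.069, limma adjusted p = 2.27e-05). Ctsd, which encodes the aspartic endopeptidase cathepsin D, read 15.14, 15.00 and 15.17 in WT and 15.65, 15.64 and 15.70 in SIRT1 KO mESCs, a log2 fold change of 0.56 (SE 0.058, limma adjusted p = 0.00016). Ctsa encodes cathepsin A, a carboxypeptidase that also protects sialidase and β-galactosidase in a complex. It read 14.49, 14.38 and 14.48 in WT and 14.89, 14.86 and 14.89 in SIRT1 KO mESCs, higher by 0.43 on the log2 scale (SE 0.051, limma adjusted p = 0.000342).

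Smaller or opposite differences were found for the other proteases. Ctsz encodes the carboxypeptidase cathepsin Z and read 14.47, 14.40 and 14.51 in WT and 14.84, 14.75 and 14.78 in SIRT1 KO mESCs. Its log2 fold change of 0.33 (SE 0.053) had a limma adjusted p of 0.00178 and at most 0.0118, above the threshold, when any 1 of the SIRT1 KO libraries was left out. Ctsf, which encodes the cysteine protease cathepsin F, was the exception in this class and fell. It read 12.81, 12.74 and 12.96 in WT and 12.39, 12.32 and 12.44 in SIRT1 KO mESCs, a log2 fold change of -0.45 (SE 0.071, limma adjusted p = 0.00172), with an adjusted p of 0.0131 without SIRT1 KO replicate 2. Tpp1, which encodes tripeptidyl peptidase 1, read 13.71, 14.09 and 13.75 in WT and 14.24, 14.12 and 14.14 in SIRT1 KO mESCs. WT replicate 2 stood apart from the other WT libraries and close to the SIRT1 KO libraries. The limma adjusted p of Tpp1 was 0.0355 with all libraries and 0.000107 without WT replicate 2. Ctsb, which encodes the abundant cysteine protease cathepsin B, read 15.54, 15.50 and 15.56 in WT and 15.67, 15.66 and 15.70 in SIRT1 KO mESCs. Its libraries did not overlap, but the log2 fold change was only 0.15 (SE 0.046, limma adjusted p = 0.0429). Ctsh, which encodes the aminopeptidase cathepsin H, had the lowest values of the set, at 6.06, 5.97 and 5.88 in WT and 5.84, 5.75 and 5.76 in SIRT1 KO mESCs (log2 fold change -0.19, limma adjusted p = 0.0515).

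The glycosidases and sulfatases held the gene with the highest fold change of the set. Of 11 genes, 8 rose, 1 fell and 2 did not pass the test, with a median log2 fold change of 0.39. Hexa (chr9:59539540-59565109, plus strand, GRCm38) encodes the α subunit of β-hexosaminidase A, which removes a sugar from the ganglioside GM2. It read 12.29, 12.20 and 12.35 in WT and 13.75, 13.78 and 13.81 in SIRT1 KO mESCs. The log2 fold change was 1.50 (SE 0.057, 95% confidence interval 1.37 to 1.63, limma adjusted p = 8.35e-07), a 2.83-fold difference that ranked 43 among the rises of all tested genes. Gm2a, which encodes the protein that presents GM2 to the enzyme, read 12.99, 12.95 and 13.01 in WT and 13.11, 13.06 and 13.03 in SIRT1 KO mESCs. Its log2 fold change of 0.08 (SE 0.053, 95% confidence interval -0.04 to 0.20) did not pass the test, with a limma adjusted p of 0.272.

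Sgsh, Naglu, Idua and Gusb encode enzymes that take part in the breakdown of heparan sulfate, a sulfated glycan of the cell surface, and the first 3 rose. Sgsh, which encodes N-sulfoglucosamine sulfohydrolase, read 9.39, 9.43 and 9.45 in WT and 10.26, 10.14 and 10.27 in SIRT1 KO mESCs, a log2 fold change of 0.80 (SE 0.075, limma adjusted p = 8.61e-05). Naglu, which encodes α-N-acetylglucosaminidase, read 9.38, 9.43 and 9.41 in WT and 10.18, 10.12 and 10.01 in SIRT1 KO mESCs, a log2 fold change of 0.70 (SE 0.076, limma adjusted p = 0.000213). Both were among the less expressed genes of the set, and their groups lay apart by several times the spread within a genotype. Idua, which encodes α-L-iduronidase, read 9.12, 9.39 and 9.28 in WT and 9.79, 9.66 and 9.72 in SIRT1 KO mESCs. Its log2 fold change was 0.45 (SE 0.090, limma adjusted p = 0.00555), and its adjusted p reached 0.0253 with 1 library left out, passing the threshold in only 1 of those 6 fits. Gusb, which encodes β-glucuronidase, ranged from 13.11 to 13.19 in WT and from 13.11 to 13.28 in SIRT1 KO mESCs. The genotypes overlapped, and the 95% confidence interval of its log2 fold change was -0.10 to 0.18.

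The enzymes of glycoprotein breakdown moved in both directions. Man2b1 and Manba encode the lysosomal α-mannosidase and β-mannosidase, which remove mannose from N-glycans one after the other. Man2b1 read 14.53, 14.54 and 14.59 in WT and 14.91, 14.89 and 14.94 in SIRT1 KO mESCs, a log2 fold change of 0.36 (SE 0.047, limma adjusted p = 0.000579). Manba read 16.75, 16.68 and 16.78 in WT and 16.19, 16.32 and 16.36 in SIRT1 KO mESCs, a log2 fold change of -0.44 (SE 0.059, limma adjusted p = 0.000628), so that the α-mannosidase gene rose and the β-mannosidase gene fell, each with no overlap between genotypes. Neu1, which encodes the sialidase that works in a complex with cathepsin A, read 12.65, 12.52 and 12.68 in WT and 13.12, 13.13 and 13.22 in SIRT1 KO mESCs, a log2 fold change of 0.54 (SE 0.063, limma adjusted p = 0.000307). Fuca1 and Fuca2 encode α-L-fucosidases. Fuca1 read 13.72, 13.63 and 13.77 in WT and 13.95, 13.87 and 13.99 in SIRT1 KO mESCs, and its log2 fold change of 0.23 (SE 0.059, limma adjusted p = 0.0184) did not pass the test. Fuca2 was expressed at a lower level and read 10.05, 10 and 10.09 in WT and 10.47, 10.48 and 10.35 in SIRT1 KO mESCs. It rose by the test, with a log2 fold change of 0.39 (SE 0.073, limma adjusted p = 0.00416), although its adjusted p reached 0.0259 with 1 library left out and passed in only 1 of those 6 fits. Gaa encodes acid α-glucosidase, which degrades glycogen, and read 13.93, 13.96 and 14.03 in WT and 14.45, 14.32 and 14.31 in SIRT1 KO mESCs. It was higher in every SIRT1 KO library, by 0.39 (SE 0.058, limma adjusted p = 0.00128) on the log2 scale.

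Among lipid enzymes, thioesterases and activators 1 of 7 genes rose and none fell, with a median log2 fold change of 0.14. This share of 14.3% was near the 12.4% of tested protein-coding genes. At an unadjusted p under 0.05, 3 of the 7 were higher and 1 was lower, against 4139 and 3930 of the 16156 tested protein-coding genes. Ppt1, which encodes palmitoyl-protein thioesterase 1, was the gene that rose. It read 13.77, 13.65 and 13.79 in WT and 14.14, 14.21 and 14.17 in SIRT1 KO mESCs, a log2 fold change of 0.44 (SE 0.056, limma adjusted p = 0.000512). Its paralog Ppt2 read 11.06, 11.12 and 10.99 in WT and 11.33, 11.38 and 11.32 in SIRT1 KO mESCs and had a log2 fold change of 0.29 (SE 0.066, limma adjusted p = 0.0107), just short of the threshold. Psap encodes prosaposin, the precursor of the saposins that help enzymes reach glycosphingolipids. It read 16.64, 16.48 and 16.68 in WT and 16.74, 16.71 and 16.76 in SIRT1 KO mESCs, and its log2 fold change of 0.14 (SE 0.060, limma adjusted p = 0.129) did not pass the test. Grn encodes progranulin, a secreted protein that reaches the lysosome together with prosaposin, and read 15.19, 15.22 and 15.25 in WT and 15.52, 15.38 and 15.38 in SIRT1 KO mESCs, with a log2 fold change of 0.21 (SE 0.056, limma adjusted p = 0.0226). Pld3, which encodes a lysosomal exonuclease of the phospholipase D family, read 13.90, 13.87 and 13.94 in WT and 14.03, 13.95 and 13.99 in SIRT1 KO mESCs, with a log2 fold change of 0.09 (SE 0.050, limma adjusted p = 0.247). Lipa, which encodes the acid lipase of cholesteryl esters and triglycerides, was the gene of this class with lower values in SIRT1 KO mESCs. It read 10.79, 10.77 and 10.69 in WT and 10.41, 10.64 and 10.60 in SIRT1 KO mESCs, with a log2 fold change of -0.20 (SE 0.082, limma adjusted p = 0.102).

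Of the 6 membrane proteins, 4 rose, none fell and 2 did not pass the test, with a median log2 fold change of 0.43. At an unadjusted p under 0.05, 1 of the 6 was lower. Scarb2 encodes LIMP-2, the receptor that carries β-glucocerebrosidase to the lysosome. It read 13.30, 13.32 and 13.40 in WT and 14.22, 14.22 and 14.19 in SIRT1 KO mESCs, and no library of a genotype came near the other genotype. Its log2 fold change was 0.87 (SE 0.051, limma adjusted p = 7.1e-06). Cln3, which encodes a lysosomal membrane protein mutated in juvenile Batten disease, read 12.09, 12.11 and 12.29 in WT and 12.84, 12.79 and 12.78 in SIRT1 KO mESCs, a log2 fold change of 0.64 (SE 0.068, limma adjusted p = 0.000184). Lamp1 and Lamp2 encode related, heavily glycosylated proteins that line the lysosomal membrane. Lamp1 read 16.52, 16.41 and 16.61 in WT and 16.97, 16.94 and 16.97 in SIRT1 KO mESCs, a log2 fold change of 0.45 (SE 0.059, limma adjusted p = 0.0006). Lamp2 read 13.44, 13.61 and 13.37 in WT and 13.30, 13.22 and 13.25 in SIRT1 KO mESCs, and its log2 fold change of -0.22 (SE 0.069, limma adjusted p = 0.0411) had the opposite sign and did not pass the test. Lamp1 was also the more expressed of the pair in WT mESCs, at 34920 against 1196 linear units per kb of exons. Cd63, which encodes a tetraspanin of late endosomes and lysosomes, read 12.99, 13.05 and 12.93 in WT and 13.46, 13.37 and 13.34 in SIRT1 KO mESCs, a log2 fold change of 0.40 (SE 0.060, limma adjusted p = 0.00121). Mcoln1 encodes TRPML1, the channel that releases calcium from the lysosome. It ranged from 12.97 to 13.11 in WT and from 13.02 to 13.09 in SIRT1 KO mESCs, with a 95% confidence interval of -0.12 to 0.14 for its log2 fold change, and its promoter holds a full TCACGTGA.

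Both factors of the endoplasmic reticulum stayed short of the threshold, with 1 higher at an unadjusted p under 0.05. Cln8, which encodes a cargo receptor that moves newly made hydrolases toward the Golgi, ranged from 13.54 to 13.66 in WT and from 13.51 to 13.62 in SIRT1 KO mESCs. Its log2 fold change of -0.03 had a 95% confidence interval of -0.16 to 0.10. Sumf1, which encodes the enzyme that activates all sulfatases by modifying a cysteine in them, read 13.08, 13.10 and 13.22 in WT and 13.37, 13.35 and 13.41 in SIRT1 KO mESCs, with a log2 fold change of 0.24 (SE 0.057, limma adjusted p = 0.013).

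The MiT/TFE factors themselves showed small differences, and not in a common direction. Tfeb read 14.44, 14.42 and 14.55 in WT and 14.76, 14.71 and 14.72 in SIRT1 KO mESCs, a log2 fold change of 0.26 (SE 0.053, limma adjusted p = 0.00602). The adjusted p of Tfeb was 0.0132 with the replicate number as a block and 0.0108 without the filter on low values, and it lay between 0.0236 and 0.0310 without WT replicate 1 or any 1 of the SIRT1 KO replicates. Tfe3 read 14.63, 14.79 and 14.62 in WT and 14.52, 14.47 and 14.38 in SIRT1 KO mESCs, lower in every SIRT1 KO library, but its log2 fold change of -0.23 (SE 0.064, limma adjusted p = 0.0284) did not pass the test. Mitf ranged from 13.30 to 13.39 in WT and from 13.14 to 13.33 in SIRT1 KO mESCs. The genotypes overlapped, with a log2 fold change of -0.11 (SE 0.065, limma adjusted p = 0.256). These are RNA levels, and the place of the factors in the cell, by which mTORC1 acts on them, was not measured in these libraries.

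**Figure D3:**
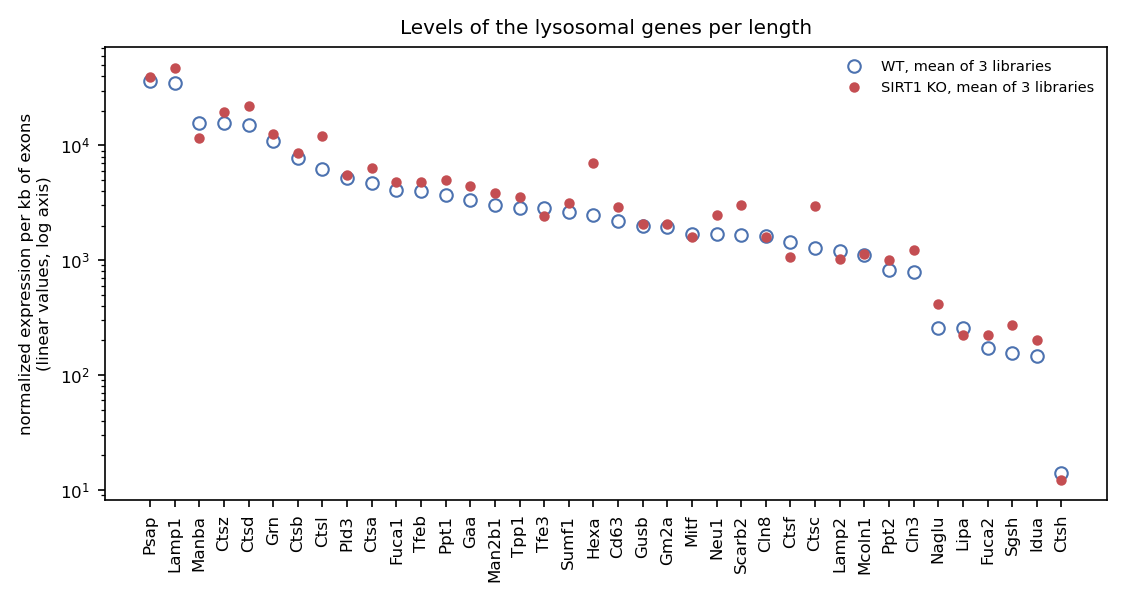
Points give the mean linear normalized expression of 3 libraries per kb of exons on a log axis, open for WT and filled for SIRT1 KO, with the 38 genes ordered by their WT level on the x axis. Psap and Lamp1 lie highest in WT mESCs at 36302 and 34920, Ctsh lies lowest at 13.9, and Hexa moves from 2490 to 7037.

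Levels per kb of exons, on the linear scale, allowed the genes to be compared with each other. In WT mESCs Psap had the highest level at 36302, followed by Lamp1 at 34920, Manba at 15665, Ctsz at 15637 and Ctsd at 15002. The lowest were Idua at 147, Sgsh at 156, Fuca2 at 171 and, well below them, Ctsh at 13.9. The genes with the 5 highest fold changes came from different places in this order. Hexa went from 2490 to 7037, Ctsc from 1265 to 2953, Ctsl from 6221 to 11996, Scarb2 from 1647 to 3015 and Sgsh from 156 to 271. Summed over the 38 genes and not per length, linear expression in units of 1000 was 754 to 805 in the WT libraries and 919 to 943 in the SIRT1 KO libraries, so that the totals of the genotypes did not overlap.

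Genes with and without an E-box in their promoter were both represented among the rises. Of the 11 genes with CACGTG, 8 rose, 1 fell and 2 did not pass the test, with a median log2 fold change of 0.45. Of the 24 matched genes without it, 11 rose, 1 fell and 12 did not pass the test, with a median of 0.28. Of the genes with the 5 highest fold changes of the set, Hexa, Ctsc and Scarb2 had no CACGTG in the window, which says nothing of sequence outside it, whereas Ctsl had it at -236 and Sgsh at -29. The difference between both sets of genes was not tested.

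Genes near each other on a chromosome can move together in a cell line, so each gene was set beside the tested protein-coding genes within 2.5 Mb of it. Man2b1 (chr8:85083270-85098282, plus strand, GRCm38) lay in a region with many rises. Of its 82 neighbours 39 rose, and their median log2 fold change was 0.29, against 0.36 for Man2b1 itself. For the other 37 genes the median of the neighbours lay between -0.18 and 0.08, and without Man2b1 18 of 37 genes rose and 2 fell. The median was 0.04 around Hexa, 0.01 around Ctsc and -0.12 around Ctsl. The part of the region in the value of Man2b1 was not tested.

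**Figure D4:**
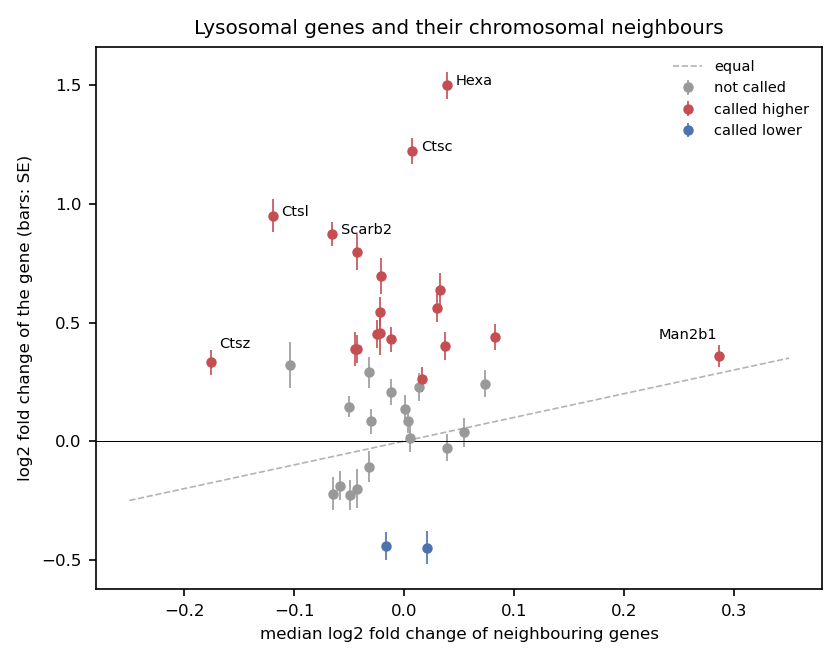
Each point is a lysosomal gene, with the median log2 fold change of its neighbouring protein-coding genes within 2.5 Mb on the x axis and its own log2 fold change with SE bars on the y axis, and the dashed line marks equal values. Man2b1 lies by itself near the dashed line at a neighbour median of 0.29, whereas Hexa at 1.50 and Ctsc at 1.22 lie far above neighbours with medians of 0.04 and 0.01.

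Some of the genes share exonic sequence with a gene on the opposite strand, and no source used here states the strand setting of the read counting. Such pairs are uncertain to the extent of the overlap. Ctsl has the highest share of these, with 26.8% of its exonic bases overlapping with the antisense gene Gm47123, which was listed at 0 in all libraries. Ctsb shares 12.8% with Fdft1, which had a WT mean of 16.35, above the 15.53 of Ctsb, and did not pass the test. Of the exonic bases of Ctsa 10.5% overlap with Pltp, which rose with a log2 fold change of 0.41 (limma adjusted p = 0.00239). Lamp1 shares 9.31% with Grtp1, Cln3 shares 7.65% with Apobr and Idua shares 2.95% with Dgkq, and each of these partners rose too, by 0.25, 0.44 and 0.27 on the log2 scale. Sgsh shares 21.6% with Card14, which was listed at a mean of 5.59 in WT and did not pass the test, and Hexa shares 12.8% with Tmem202, which was too low to be tested. On the same strand, Ppt2 shares 36.6% of its exonic bases with Gm20460 and Ctsd 34.4% with Gm49369. Neither partner was among the tested genes, and such overlaps are uncertain with any strand setting. The shares of reads from each gene of a pair were not tested.

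**Figure D5:**
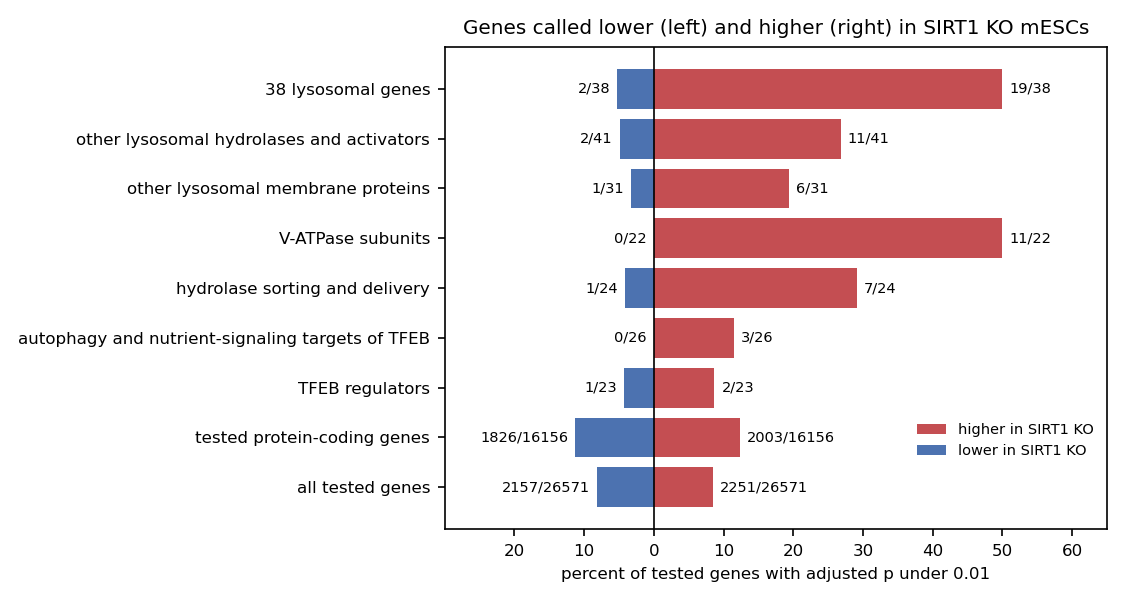
Bars give the percent of tested genes of each list with a limma adjusted p under 0.01, higher in SIRT1 KO to the right and lower to the left, with the count of genes beside each bar. The 38 lysosomal genes and the V-ATPase subunits each reach 50% higher, against 12.4% of tested protein-coding genes and 8.47% of all tested genes.

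Lists of other genes of the lysosome were set beside the 38 genes. The V-ATPase, the pump that acidifies the lysosome, had the same share of rises, with 11 of 22 tested subunits rising, none falling and a median log2 fold change of 0.31. At an unadjusted p under 0.05 there were 16 higher and 1 lower, against 5148 and 5306 of all 26571 tested genes. Atp6v1b2, a subunit of the part that hydrolyses ATP, had a log2 fold change of 0.70 (limma adjusted p = 1.87e-05), but 52 of its 96 neighbours also rose. Atp6ap1, an accessory subunit, had a log2 fold change of 0.55 (limma adjusted p = 8.57e-05), and Atp6v0d1 and Atp6v1a had 0.42 and 0.43. Without SIRT1 KO replicate 2 or 3, 7 of the 22 subunits rose, as the count over all tested genes also went from 2251 to 1206 and 1202.

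Other lysosomal hydrolases and activators moved in both directions, with 11 of 41 rising (26.8%), 2 falling and a median log2 fold change of 0.12. Dnase2a, which encodes the acid DNase of the lysosome, had a log2 fold change of 0.88 (limma adjusted p = 7.34e-06) among neighbours with a median of 0.30. The lysosomal dipeptidyl peptidase gene Dpp7 and the acid phosphatase gene Acp2 each had 0.63, and Asah1, which encodes acid ceramidase, had 0.53. Arsa, which encodes the arylsulfatase that degrades sulfatide, and Glb1, which encodes β-galactosidase, were the genes that fell, with log2 fold changes of -0.50 (limma adjusted p = 0.000368) and -0.23 (limma adjusted p = 0.00814). Glb1 lost its call with the replicate number as a block (limma adjusted p = 0.0167), with median centring, without the filter and in 5 of the 6 fits with 1 library left out. Of 31 other lysosomal membrane proteins 6 rose and 1 fell, with a median of 0.06. The rises were 19.4%, against 12.4% of protein-coding genes and 16.4% of those with a mean linear value of at least 1000. Tmem175, a lysosomal ion channel, had a log2 fold change of 0.51 and Ctns, the cystine exporter, 0.41, while Laptm4b fell with -0.76 (limma adjusted p = 5.33e-05). Without SIRT1 KO replicate 2 or 3 the count of rising membrane proteins was 3.

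The machinery that tags and delivers hydrolases showed 7 rises and 1 fall among 24 genes, with a median log2 fold change of 0.11. Gnptg, a subunit of the enzyme that starts the mannose 6-phosphate tag, had a log2 fold change of 0.58 (limma adjusted p = 0.000138). Vps35 of the retromer and Ap1m1 of the clathrin adaptor AP-1 had 0.60 and 0.58 among neighbours with medians of 0.27 and 0.36. The gene that fell was Igf2r, which encodes the large mannose 6-phosphate receptor, with -0.49 (limma adjusted p = 0.000213). M6pr, which encodes the other mannose 6-phosphate receptor, rose with 0.38 (limma adjusted p = 0.00284). Gnptab, which encodes other subunits of the tagging enzyme of Gnptg, had -0.27 and did not pass the test (limma adjusted p = 0.0223). Without SIRT1 KO replicate 2 or 3, 4 of the 24 genes rose.

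Targets of TFEB in autophagy and nutrient signaling, which act mostly outside the lysosome, were counted in the same way. Of 26 such genes 3 rose, or 11.5%, near the 12.4% of protein-coding genes, and none fell, with a median log2 fold change of 0.08. At an unadjusted p under 0.05, 6 were higher and 1 was lower, against 4139 and 3930 of the 16156 tested protein-coding genes. The genes that rose were Vps8 (0.52, limma adjusted p = 0.000168), Fnip1 (0.46, limma adjusted p = 0.000683) and Atg9a (0.31, limma adjusted p = 0.00841). Atg9a lost its call with the replicate number as a block (limma adjusted p = 0.0178), without the filter and with quantile normalization. It also lost the call in 5 of the 6 fits with 1 library left out, and 2 rises remained in each of these settings. The neighbours of Atg9a had a median of 0.11, and 15 of 53 rose. Sqstm1, which encodes the autophagy receptor p62 and was singled out after its value was seen, had a log2 fold change of 0.14 (limma adjusted p = 0.0893). Of 23 regulators of TFEB, 2 rose and 1 fell, with a median of 0.00. The rises were 8.70%, near the 8.47% of all tested genes. Akt1 and the mTOR complex subunit gene Mlst8 rose with log2 fold changes of 0.59 and 0.45. Ppp3ca, which encodes a catalytic subunit of the phosphatase calcineurin, fell with -0.40 (limma adjusted p = 0.00183). Ppp3cb, which encodes another catalytic subunit, had 0.04 and did not pass the test (limma adjusted p = 0.755). Without SIRT1 KO replicate 2 or 3 no regulator fell.

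Markers of other cells that a culture of mESCs could hold were low or did not rise together. Macrophages are rich in lysosomes, and 7 of their markers, of which 4 were tested, none rose or fell and 1 was listed at 0 in all libraries, summed on the linear scale, in units of 1000, to 3.40 to 3.91 in WT and 3.69 to 3.98 in SIRT1 KO libraries. None of the 4 was past an unadjusted p of 0.05 either. Most of this sum came from Cd68, at a mean of 11.75 in WT. Csf1r, Itgam and Cd14 had WT means of 5.90 to 6.44. Cd68 is also in the list of other lysosomal membrane proteins, so the sum is mainly a reading of that gene and not of macrophages. Of 10 tested primitive endoderm markers 1 rose and 5 fell, or 50%, against falls of 8.12% over all tested genes. The primitive endoderm list summed to 63.7 to 69.0 in WT and 57.2 to 59.9 in SIRT1 KO libraries. Trophoblast markers summed to 18.8 to 19.8 in WT and 18.7 to 20.0 in SIRT1 KO libraries, and fibroblast markers, with 2 of 7 listed at 0, to 1.85 to 2.13 and 1.33 to 1.45. The sizes of both lower sums rested mainly on single genes, although several primitive endoderm markers fell. In the fibroblast list this was Thy1 (WT mean 10.86, log2 fold change -0.56), while Col1a1 had 0.18 and Col1a2 -0.10, and neither passed the test. The primitive endoderm sum came mostly from Lama1 and Col4a1, with WT means of 15.37 and 14.27. Col4a1 fell with -0.90, and Lama1 had 0.05 and did not pass the test. At lower levels, Gata6, Pdgfra, Dab2 and Hnf4a fell with -0.66, -0.55, -0.67 and -0.65, while Sox7 rose with 0.96. The part of these marker differences in the values of the lysosomal genes was not tested.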

How the data were processed

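RNA-seq of 3 WT and 3 SIRT1 KO libraries of mESCs was used. Per the study's methods and the labels, the authors trimmed the reads, aligned them to GRCm38 (mm10) with STAR, counted them per gene with featureCounts and normalized them with DESeq2. The deposited values are log2 normalized expression, but which transformation of DESeq2 made them is not stated. The values of low genes lie close together, so that their fold changes may be understated, which was not tested. The depth of the libraries cannot be read from the deposited values. The labels name a poly(A) kit, whereas the study's methods name a stranded kit with ribosomal depletion. Neither source gives the strand setting of the counting.

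Of 54352 genes, 16649 were listed at 0 in all libraries, and the 26571 with a mean linear value of at least 10 were tested with limma 3.58.1 (R 4.3.3), its prior variance following the mean. The threshold was a p under 0.01 after Benjamini-Hochberg adjustment. The script was tested on simulated data. An exact permutation test of 3 against 3 libraries cannot go below p = 0.10, the value found for Sirt1. All 38 genes are named, and of each other list up to 4 called genes with the smallest adjusted p. M6pr, Gnptab, Ppp3cb and single cell type markers were named besides. The 38 genes and the lists were chosen with earlier results of these data known. Linear values per kb used the merged exons of GENCODE on GRCm38, and promoters came from RefSeq (GRCm38.p6). Same-numbered libraries of both genotypes deviated together, with correlations of 0.24, 0.15 and 0.32 against at most 0.08 for different numbers, although no source says what a number stands for. The alternatives were no filter, a mean of at least 100, a pseudocount of 10, median centring, quantile normalization, no trend, a replicate block, an adjusted p under 0.05 and each library left out. Leaving out genes in raised regions (neighbour median above 0.1) was added after seeing the data.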

Additional observations from a re-analysis of the deposited data

How the results depend on the processing

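Of the 21 calls among the 38 genes, 16 held under all of 14 alternatives, and those of Ctsf, Ctsz, Idua, Fuca2 and Tfeb did not. With the replicate number as a block, Tfeb lost its call, the falls among other hydrolases went from 2 to 1, since Glb1 lost its call, Atg9a lost its call among the autophagy targets, and falls among other membrane proteins went from 1 to 2, and no other call among the 38 genes changed. Falls among other hydrolases were also 1 without the filter, with median centring and without genes in raised regions, falls among other membrane proteins were 2 without the trend, and falls among TFEB regulators were 2 with a mean of at least 100 and with quantile normalization. Median centring raised the median of the 38 genes to 0.36. At an adjusted p under 0.05, 3804 genes rose and 3762 fell, 25 of the 38 rose and 4 fell, and 5 autophagy and nutrient-signaling targets rose. Other membrane proteins then gave 9 rises and 4 falls, the V-ATPase 16 and 1, sorting and delivery 10 and 2, and TFEB regulators 2 and 3.

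With 1 library left out at a time, all genes gave 1202 to 2794 rises and 1283 to 2669 falls, the 38 genes 15 to 21 rises and 1 to 2 falls, and the V-ATPase 7 to 14 rises. Other hydrolases gave 1 to 3 falls, other membrane proteins 3 to 8 rises and 1 to 4 falls, sorting and delivery 4 to 8 rises and 1 to 2 falls, and TFEB regulators 0 to 2 falls. Log2 fold changes close to 0 changed sign. With 1 library left out Gusb was -0.0082 to 0.075, Mcoln1 -0.024 to 0.046 and Cln8 -0.056 to 0.0042. Mcoln1 was -0.0089 with quantile normalization, and Cln8 was 0.029 with median centring. The cause of these changes was not tested. With 3 libraries of 1 line per genotype and no counts, differences of low genes such as Ctsh could not be resolved.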
